A study of Mus musculus with 20 samples.

Results

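CD4 T cells that had been Th17 cells when they entered the host were recovered from the inflamed colon, and the mRNA of those lacking Il6ra, which encodes the alpha chain of the IL-6 receptor, was compared with that of wild-type cells taken from the same hosts. The comparison used 6 of the 20 libraries of the series, 3 Il6ra-deficient and 3 wild-type, chosen by the library titles and paired by the number that the titles carry (0, 1 and 2). The other libraries were 4 of the same cells before transfer and 10 of a separate culture experiment. Gene expression was measured by sequencing of polyadenylated RNA.

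The Il6ra-deficient colon libraries came from C57BL/6 donors of genotype Il6ra-/- Il17f/Thy1.1, which carry the CD45.2 allele. The wild-type colon libraries came from Il17f/Thy1.1 donors of the CD45.1 allele. In both, a Thy1.1 surface marker reports Il17f expression. Both kinds of cells had been through the same Th17 culture of 6 days on irradiated splenic antigen-presenting cells, with anti-CD3, antibodies that block IFN-gamma and IL-4, 2.5 ng/ml of TGF-beta and 20 ng/ml of hyper-IL-6. Hyper-IL-6 is IL-6 fused to its soluble receptor and acts on cells with no receptor of their own, so the deficient cells had received an IL-6 signal in culture. Thy1.1-positive cells of both genotypes, 200000 of each, were placed together into Rag1-/- mice, which lack T and B cells of their own, and 4 weeks later live CD4+ TCRb+ colon cells were sorted by CD45 allele and pooled. The sort in the colon did not use the Thy1.1 marker. Library 0 of each genotype came from a first experiment and libraries 1 and 2 from pools of a second. The main test fits the library number as a block, which takes up differences between pools and experiments. Its p-values thus measure how the genotype difference varied between numbered pairs, before transfer as well as in the colon. For each gene this spread is also drawn toward that of other genes (prior degrees of freedom 5.43, beside 3 residual). Numbers 1 and 2 share the second experiment, so their pairs are not from separate experiments. Fits without the block measure the spread between pools too. The genotypes also differ in the CD45 allele and in whatever DNA travels with it, and these cannot be told apart from Il6ra in this comparison.

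IL-6 binds the receptor alpha chain, joins the shared signalling chain gp130 and activates STAT3. With TGF-beta this signal starts the Th17 programme, marked by the IL-17 cytokine genes, and IL-23 and IL-1 sustain it through their receptors. Transferred Th17 cells are known to be unstable in the inflamed gut, where many come to make the Th1 cytokine IFN-gamma.

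The colon libraries held between 12718633 and 23296293 counts in genes. Levels are TMM-normalised CPM (counts scaled to library size), which do not correct for gene length, and differences are log2 fold changes of Il6ra-deficient over wild type ± SE. Cd4 had 1840, 1742 and 1804 CPM in the deficient libraries 0, 1 and 2, against 1719, 1805 and 1962 CPM in the wild-type libraries, and the other CD4 T cell markers, the CD3 chains and Lck among them, were read in all 6 libraries. Wild-type library 2 stood apart, with 4.28% of its counts in mitochondrially encoded genes, where the deficient libraries had 1.83% to 2.00% and the other wild-type libraries 2.27% and 2.16%. Il6ra itself had 4.85, 3.46 and 2.53 CPM in deficient libraries, against 10.7, 4.32 and 5.40 CPM in wild-type libraries (edgeR adjusted p = 0.307). Which part of the gene was deleted was not stated in the labels, and a count over the whole gene does not check the genotype.

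In Il6ra-deficient colon cells the IL-33 receptor gene Il1rl1 and the IL-12 receptor gene Il12rb2 rose, and Il17a, Il17f, Il22, the IL-23 receptor gene Il23r and the IL-1 receptor genes Il1r1 and Il1r2 fell. In edgeR's quasi-likelihood test with the library number as a block, 94 of 14225 genes tested passed an adjusted p of 0.05 (0.661% of all tested). Of these, 39 were higher (0.274%) and 55 lower (0.387%) in Il6ra-deficient cells. Each of the 94 differed in the same direction in all 3 numbered pairs, and 87 had groups that did not overlap in CPM, as did 15.8% of all genes tested. In 81 of the 94 every pair differed by at least 1 on the log2 scale (CPM with 0.5 added). The 94 were chosen by a test on these same pairs, so agreement between pairs is not separate support. Shares over all genes for the pair counts were not computed. The median difference over all genes was 0.01. The median log2 fold change was 1.68 among genes that rose and -1.88 among those that fell. Calls came from every level of expression, making up 0.443% of genes with low mean levels, 1.12% of those with middle levels and 0.422% of those with high levels, in 3 classes of nearly equal size. Without the block, 22 genes passed (0.155%), 9 higher (0.0633%) and 13 lower (0.0914%), and 20 of them were among the 94. Among calls named in this text, these were Il1rl1, Il12rb2, Itga1, Klrd1, Nav1, Eps8l1, Camk2b, Mfsd13a, Ctse, Atrnl1, Plcb4, Tox2, Ablim3, Ptprv, Gm15987 and Npm3-ps1. The other named calls, Il10ra, Il1r2, Il23r, Entpd1, Pim2, Klrk1, Ifitm2 and Fgl2 among them, did not pass without the block. With the experiment as the term in place of the number, 142 passed and 93 of the 94 were among them. Without the libraries numbered 0, 1 or 2, 23, 9 and 2 genes passed, and the 94 kept their direction in every setting, of 18 tried, that gave them a value (Npm3-ps1 had a value in 17). The settings reuse the libraries that chose the 94, so a kept direction is not separate support.

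**Figure D1:**
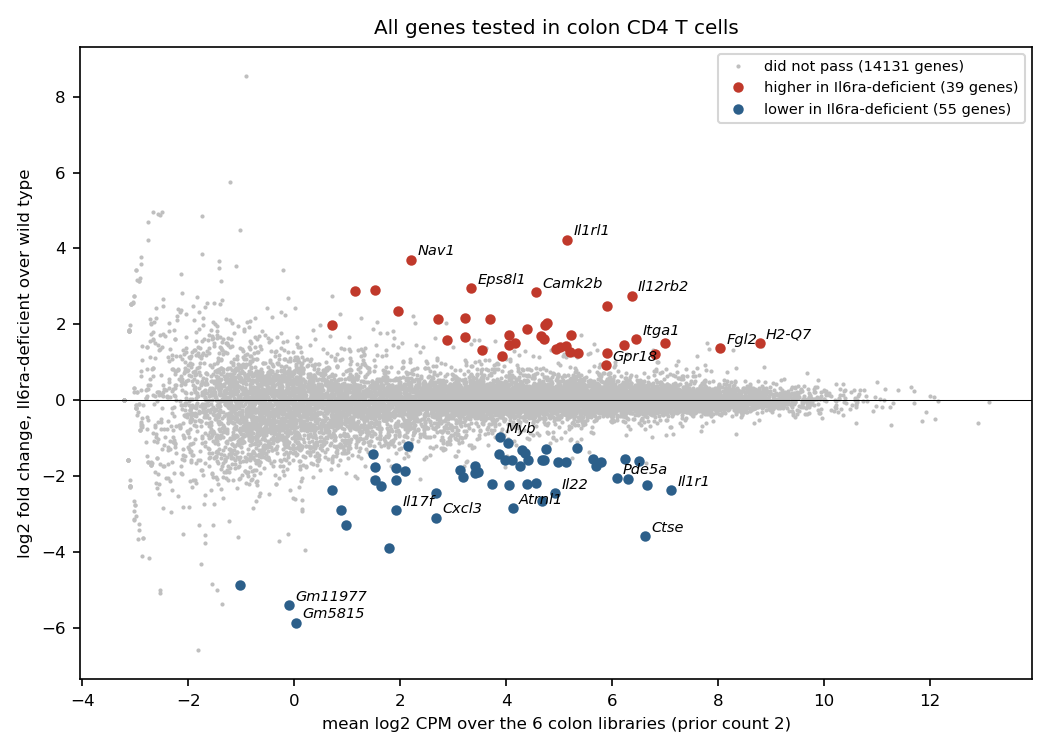
Mean log2 CPM over the 6 colon libraries (x axis) against the log2 fold change of Il6ra-deficient over wild type (y axis) for each of the 14225 genes tested. Red points are the 39 genes that passed and were higher in Il6ra-deficient cells, blue points the 55 that passed and were lower, and grey points did not pass; Il1rl1 is the highest red point at 4.24.

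The promoter windows of the 3 Th17 cytokine genes that fell and of the 2 cytokine receptor genes with the largest rises are shown because the results below turn on these genes. Each window holds 250 bases before the annotated start and 50 after it, read 5′ to 3′ on the gene's strand, from RefSeq (GRCm38.p6). Capitals mark matches on either strand to AGGTCA (a nuclear receptor half-site), TTCNNNGAA (the STAT site), TCACACC (a T-box half-site) or TGANTCA (the AP-1 site). Il1rl1 has an upstream and a downstream start in the table.
Il17a, chr1:20730655-20730954 (plus strand): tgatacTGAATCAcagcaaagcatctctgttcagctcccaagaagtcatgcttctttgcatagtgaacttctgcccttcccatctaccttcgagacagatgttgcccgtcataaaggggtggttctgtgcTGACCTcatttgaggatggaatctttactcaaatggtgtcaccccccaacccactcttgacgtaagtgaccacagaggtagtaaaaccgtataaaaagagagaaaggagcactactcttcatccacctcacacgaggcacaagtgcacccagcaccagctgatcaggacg
Il17f, chr1:20784221-20784520 (minus strand): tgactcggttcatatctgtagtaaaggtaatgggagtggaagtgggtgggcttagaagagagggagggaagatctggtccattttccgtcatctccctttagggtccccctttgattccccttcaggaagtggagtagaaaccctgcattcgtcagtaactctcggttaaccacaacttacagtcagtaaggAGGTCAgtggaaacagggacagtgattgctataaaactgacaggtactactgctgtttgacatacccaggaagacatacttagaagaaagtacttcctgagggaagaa
Il22, chr10:118204714-118205013 (plus strand): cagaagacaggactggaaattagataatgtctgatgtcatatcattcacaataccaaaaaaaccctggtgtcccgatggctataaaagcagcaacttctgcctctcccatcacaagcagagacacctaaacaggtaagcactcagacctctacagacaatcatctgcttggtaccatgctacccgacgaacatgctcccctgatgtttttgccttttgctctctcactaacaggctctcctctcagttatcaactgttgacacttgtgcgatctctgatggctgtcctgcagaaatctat
Il12rb2, chr6:67376139-67376438 (minus strand): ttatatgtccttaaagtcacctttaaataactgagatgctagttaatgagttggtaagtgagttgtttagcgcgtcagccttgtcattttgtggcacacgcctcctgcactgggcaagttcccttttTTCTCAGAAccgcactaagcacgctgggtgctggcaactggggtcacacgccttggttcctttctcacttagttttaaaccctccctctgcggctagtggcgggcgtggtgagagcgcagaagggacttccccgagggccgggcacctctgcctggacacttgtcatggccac
Il1rl1 upstream start, chr1:40429320-40429619 (plus strand): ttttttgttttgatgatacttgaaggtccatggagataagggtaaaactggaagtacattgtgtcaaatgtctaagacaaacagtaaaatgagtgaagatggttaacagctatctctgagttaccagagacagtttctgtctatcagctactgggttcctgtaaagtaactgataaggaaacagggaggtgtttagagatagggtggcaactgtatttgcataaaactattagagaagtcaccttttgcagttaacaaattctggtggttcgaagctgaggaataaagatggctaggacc
Il1rl1 downstream start, chr1:40439379-40439678 (plus strand): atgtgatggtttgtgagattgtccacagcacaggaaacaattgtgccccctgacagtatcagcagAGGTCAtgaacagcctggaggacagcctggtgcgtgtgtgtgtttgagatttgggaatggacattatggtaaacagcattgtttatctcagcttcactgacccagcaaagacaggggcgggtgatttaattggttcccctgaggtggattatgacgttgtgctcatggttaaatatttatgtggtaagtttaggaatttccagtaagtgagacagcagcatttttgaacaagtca

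The windows of Il17a and Il17f each held AGGTCA, read on the opposite strand in Il17a, and the Il17a window also held TGANTCA. The downstream window of Il1rl1 held AGGTCA too, and the Il12rb2 window held TTCNNNGAA. Over the 69 of the 94 genes found in the RefSeq table, AGGTCA was in 8 of 50 windows of genes that fell and 3 of 36 windows of genes that rose (8.33%), against 12.7% of windows of all tested genes and 16.3% of all windows. TTCNNNGAA was in 6.00% and 5.56% of these, against 6.83% of tested and 8.30% of all. TCACACC was in 4.00% of windows of genes that fell and in 0 of 36 windows of genes that rose, against 3.42% and 3.98%. TGANTCA was in 2.00% of windows of genes that fell and 16.7% of those that rose, against 5.28% and 7.81%. A match says only that these letters are there.

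Cytokine genes of the Th17 programme were lower in Il6ra-deficient colon cells. Il17a had 20.2, 3.79 and 12.9 CPM in deficient libraries, against 120, 48.8 and 46.8 CPM in wild-type libraries. Both groups were highest in library 0, and the groups did not overlap. Its log2 fold change was -2.65 ± 0.32 (edgeR adjusted p = 0.0116), and it did not pass without the block (adjusted p = 0.49). Il17f, its neighbour and partner in the IL-17A/F dimer, had 2.48, 0.659 and 1.30 CPM in deficient libraries, against 15.2, 6.94 and 9.76 CPM in wild-type libraries. The Il17f order over the numbers was alike in both genotypes, and the fall was -2.89 ± 0.22 (adjusted p = 0.0024, and 0.308 without the block). Il22, which acts on the epithelial barrier, had 13.1, 9.80 and 17.0 CPM in deficient libraries, against 79.0, 85.8 and 52.9 CPM in wild-type libraries. Its groups were far apart, at -2.45 ± 0.29 (adjusted p = 0.0116, and 0.0509 without the block). The chemokine gene Ccl20, whose product attracts CCR6-positive cells, was low throughout and fell by 1.79 on the log2 scale (adjusted p = 0.0101).

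Il21, the gene of a helper cytokine that acts on B and T cells, had 14.97, 18.7 and 14.9 CPM in deficient libraries, against 26.6, 28.2 and 33.6 CPM in wild-type libraries. It did not pass (adjusted p = 0.152), although the groups did not overlap. Csf2, the gene of GM-CSF, had 14.4, 8.97 and 13.8 CPM against 20.5, 21.1 and 39.0 CPM in wild type and did not pass either (adjusted p = 0.143). Cxcl3, which encodes a chemokine for neutrophils, had 1.10, 2.88 and 2.94 CPM in deficient libraries, against 13.7, 27.2 and 16.5 CPM in wild-type libraries, and fell by 3.09 (adjusted p = 0.0116). Among the 17 tested genes named as interleukins, 3 fell, Il17a, Il17f and Il22, and 0 rose. Over all genes tested, 0.387% fell and 0.274% rose.

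Rora, a nuclear receptor gene active in Th17 cells, had 537, 659 and 572 CPM in deficient libraries, against 572, 747 and 864 CPM in wild-type libraries, and overlapped between the genotypes (adjusted p = 0.953). Maf, Batf and Irf4, transcription factor genes that act early in Th17 cells, were at 0.15, -0.33 and -0.28 on the log2 fold change scale, without passing. Over the Th17 list as a whole, 8 of 21 tested members fell and 0 rose, with a median of -0.86, against a median of 0.01 over all genes. The members that fell were 38.1% of those tested, where 0.387% of all genes tested fell. Il17a, Il17f, Il22, Il23r, Il1r1, Ccl20 and Il17re were among the 8, and 0 of the 21 passed without the block in edgeR's test. Ccr6, the gene of the receptor for the Ccl20 product, had 26.2, 8.07 and 11.5 CPM in deficient libraries, against 127, 40.3 and 68.6 CPM in wild-type libraries, and missed the threshold (log2 fold change -2.39, adjusted p = 0.0532).

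**Figure D2:**
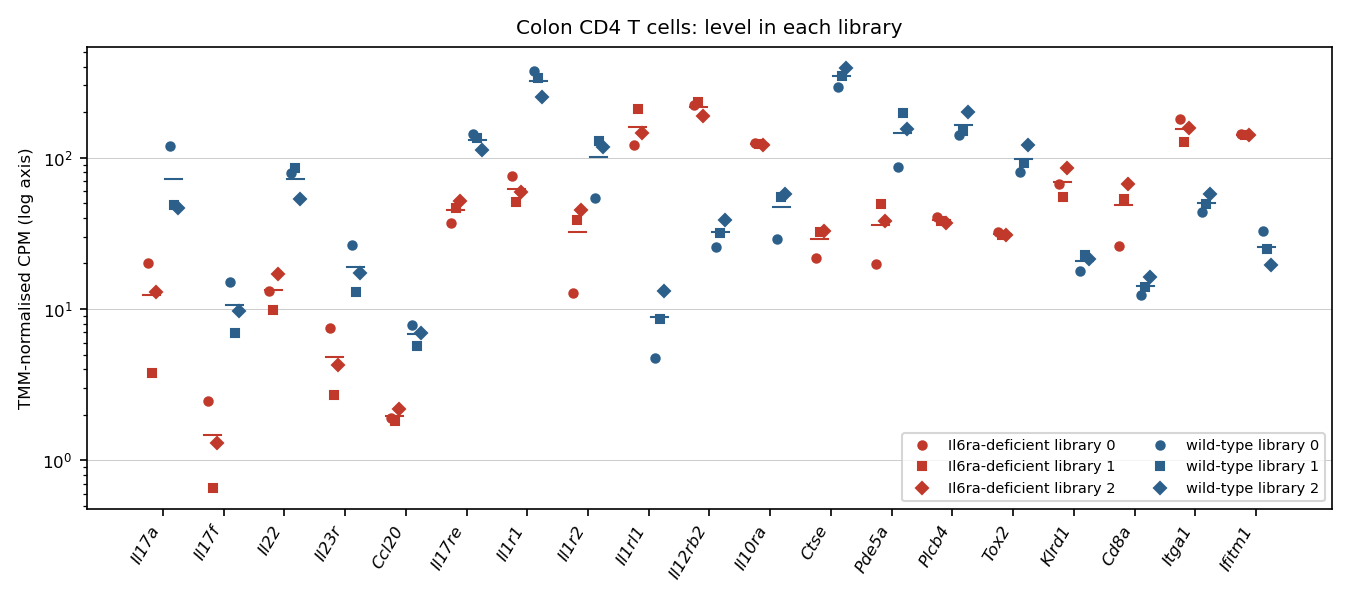
TMM-normalised CPM (log axis) of 19 genes in each colon library, Il6ra-deficient (red) to the left of wild type (blue), with a marker shape for each library number and a line at the group mean. Groups of every gene shown did not overlap, with Il1rl1 between 120 and 209 CPM in Il6ra-deficient and between 4.71 and 13.2 CPM in wild-type libraries.

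Cytokine receptor genes moved in both directions, 4 of 34 tested interleukin receptor genes higher and 4 lower. Together these were 23.5% of those tested, against 0.661% of all genes tested. Il1rl1 encodes ST2, the receptor for IL-33, an alarm cytokine of damaged epithelium. It had 120, 209 and 146 CPM in deficient libraries, against 4.71, 8.59 and 13.2 CPM in wild-type libraries, the largest rise among the 94 at 4.24 ± 0.30 (adjusted p = 0.00237, and 0.00851 without the block). Every deficient library was far above every wild-type one. Il12rb2, which encodes the chain that makes T cells answer to IL-12, had 224, 233 and 189 CPM in deficient libraries, against 25.9, 31.6 and 38.9 CPM in wild-type libraries (2.76 ± 0.40, adjusted p = 0.0234, and 0.0236 without the block). Il10ra, the gene of the IL-10 receptor, had 125, 124 and 121 CPM in deficient libraries, against 28.8, 55.3 and 57.4 CPM in wild-type libraries (1.44 ± 0.22, adjusted p = 0.0323). The deficient libraries were close to one another and all above the wild-type ones. Il17rb, the gene of an IL-25 receptor chain, was low, with 11.4, 7.00 and 7.53 CPM in deficient libraries, against 1.90, 1.16 and 2.08 CPM in wild-type libraries (adjusted p = 0.0386).

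The receptor genes that fell belong to IL-1, IL-23 and IL-17 family signalling. Il1r1, the signalling IL-1 receptor, had 76.0, 51.3 and 59.3 CPM in deficient libraries, against 372, 337 and 250 CPM in wild-type libraries (-2.36 ± 0.23, adjusted p = 0.0058, and 0.0767 without the block). Il1r2, its decoy receptor, had 12.7, 38.7 and 45.4 CPM in deficient libraries, against 54.5, 130 and 118 CPM in wild-type libraries (-1.74 ± 0.19, adjusted p = 0.0101). Libraries 0 were lowest for Il1r2 in both genotypes, and the groups did not overlap. Il23r had 7.46, 2.72 and 4.24 CPM in deficient libraries, against 26.6, 12.9 and 17.2 CPM in wild-type libraries (-2.02 ± 0.30, adjusted p = 0.0286). Il17re, the gene of an IL-17C receptor chain, had 36.9, 46.4 and 51.5 CPM in deficient libraries, against 144, 136 and 113 CPM in wild-type libraries (-1.55 ± 0.19, adjusted p = 0.0116). Neither of these receptors overlapped between the genotypes.

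Of the genes of IL-6 signalling named here, Pim2 alone passed. Il6st, the gene of gp130, had 59.1, 61.9 and 40.1 CPM in deficient libraries, against 36.7, 26.2 and 26.4 CPM in wild-type libraries. The groups did not overlap, and the difference did not pass (0.84 ± 0.23, adjusted p = 0.245). Socs3, the feedback inhibitor induced by STAT3, overlapped fully (log2 fold change 0.06, adjusted p = 0.99), and Stat3 had a log2 fold change of 0.08 (adjusted p = 0.987). Of 18 tested IL-6 and STAT3 target genes, 1 rose (5.56%, against 0.274% of all genes tested), 0 fell and the median was 0.06. The member that rose was the survival kinase gene Pim2, with 65.4, 63.4 and 61.2 CPM in deficient libraries, against 30.1, 30.3 and 20.3 CPM in wild-type libraries (1.25 ± 0.19, adjusted p = 0.0287). Of 13 tested IL-6 family ligand and receptor genes 0 passed in edgeR's test, where 0.661% of all genes tested did. In this family, Lif had the next smallest unadjusted p after Il6ra and Il6st and did not pass (adjusted p = 0.504).

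In the Th1 list Il12rb2 alone passed. Of 19 tested members, 15 had a positive log2 fold change, 1 rose (5.26%, against 0.274% of all genes tested) and the median was 0.71. Ifng had 293, 418 and 422 CPM in deficient libraries, against 157, 271 and 256 CPM in wild-type libraries (0.75 ± 0.22, adjusted p = 0.296). Tbx21, the gene of the Th1 regulator T-bet, had 177, 139 and 138 CPM in deficient libraries, against 90.2, 88.3 and 77.4 CPM in wild-type libraries (adjusted p = 0.115). The groups of both genes did not overlap. Nkg7, a granule protein gene of cytotoxic and Th1 cells, had 391.7, 315 and 417 CPM in deficient libraries, against 140, 139 and 117 CPM in wild-type libraries (1.501 ± 0.33, adjusted p = 0.141). Among 15 cytotoxic granule genes 0 passed, where 0.661% of all genes tested did, with a median of 0.71 and 10 positive. Of 20 tested genes of the pathogenic Th17 list, 3 fell (Cxcl3, Il22 and Il23r) and 1 rose. Together they were 20.0% of those tested, against 0.661% of all genes tested. The member that rose was Csf1, a macrophage growth factor gene. It had 84.6, 111 and 84.6 CPM in deficient libraries, against 29.0, 52.0 and 39.0 CPM in wild-type libraries (adjusted p = 0.0194).

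In the Treg list 17 of 20 tested genes had a positive log2 fold change and the median was 0.58. In this list 1 gene rose (5.0%, against 0.274% of all genes tested). Entpd1, which encodes the ATP-degrading surface enzyme CD39, had 47.1, 64.1 and 62.4 CPM in deficient libraries, against 14.3, 27.3 and 33.8 CPM in wild-type libraries (1.27 ± 0.20, adjusted p = 0.0348). Foxp3, the regulator of regulatory T cells, had 88.9, 35.7 and 43.7 CPM in deficient libraries, against 19.3, 23.7 and 23.6 CPM in wild-type libraries (adjusted p = 0.41), and Ikzf2, the gene of Helios, had 147, 68.3 and 60.4 CPM against 34.8, 31.5 and 25.3 CPM in wild type (adjusted p = 0.115). Deficient library 0 was the highest for both. Il10 had 22.3, 7.58 and 8.42 CPM in deficient libraries, against 1.83, 4.58 and 4.71 CPM in wild-type libraries (adjusted p = 0.407). Of 12 tested Th2 genes, Il1rl1 and Il17rb rose (16.7%, against 0.274% of all genes tested). Gata3, the Th2 regulator, was at 150.8, 123 and 95.5 CPM against 131, 102 and 101 CPM in wild type (adjusted p = 0.957). Il4 was at or under 2.66 CPM in every library. In bulk libraries more cells of a subset and more RNA per cell cannot be told apart.

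**Figure D3:**
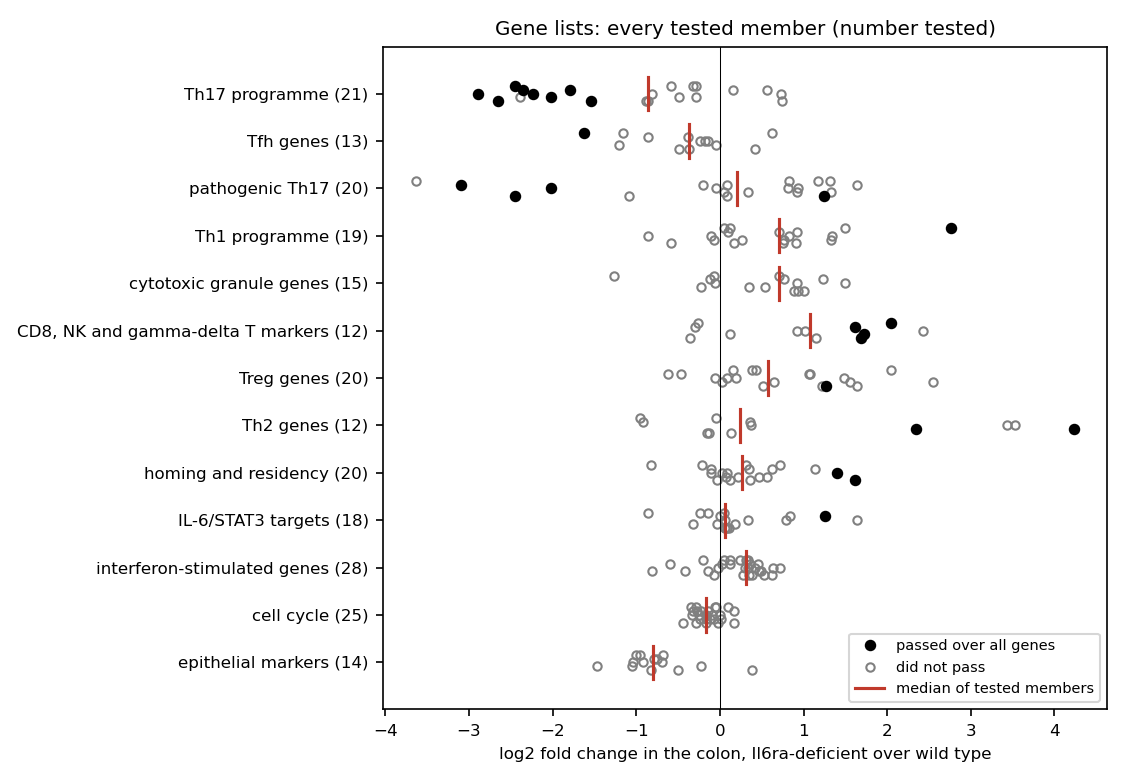
Log2 fold change of Il6ra-deficient over wild type in the colon (x axis) for every tested member of 13 lists, with the number tested in brackets. Filled points passed over all genes, open points did not, and the red bar is the median, which lies at -0.86 for the Th17 programme and 0.71 for the Th1 programme.

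Some marker genes of cytotoxic and innate-like lymphocytes rose in the deficient cells. Cd8a had 26.2, 53.2 and 66.7 CPM in deficient libraries, against 12.3, 13.9 and 16.4 CPM in wild-type libraries (1.69 ± 0.23, adjusted p = 0.02, and 0.0973 without the block). Klrd1, the gene of CD94, had 66.7, 55.3 and 85.3 CPM in deficient libraries, against 17.9, 22.7 and 21.2 CPM in wild-type libraries (adjusted p = 0.0116), and Klrk1, the gene of NKG2D, rose as well (1.62, adjusted p = 0.0432). None of the 3 overlapped between the genotypes. Of 12 tested markers of CD8, NK and gamma-delta cells, 4 rose (33.3%) and 0 fell, against 0.274% and 0.387% of all genes tested. The summed level of the 12 was between 622 and 807 CPM in deficient libraries, against 376 to 502 CPM in wild-type libraries. Cd8b1, the other CD8 chain, had 1.56, 15.4 and 9.17 CPM in deficient libraries, against 1.41, 4.05 and 5.74 CPM in wild-type libraries (adjusted p = 0.505), and Klrb1c, the gene of the NK receptor NK1.1, had 7.80, 9.22 and 10.8 CPM against 12.2, 12.1 and 9.13 CPM in wild type (adjusted p = 0.953). Ncr1, which marks NK cells, was too low to be tested. The gamma chain constant gene Tcrg-C4 had 65.2, 40.4 and 65.2 CPM in deficient libraries, against 23.3, 10.1 and 10.2 CPM in wild-type libraries (adjusted p = 0.0125). Tcrg-C1, another gamma chain constant gene, did not pass (log2 fold change -0.35). How reads were divided among the gamma constant genes was not tested. The sort required CD4 and TCRb, and whether other lymphocytes took part in these values was not tested.

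Ighm, the immunoglobulin heavy chain gene, had 81.5, 34.99 and 41.2 CPM in deficient libraries, against 27.4, 17.8 and 14.4 CPM in wild-type libraries (1.35 ± 0.21, adjusted p = 0.0348). The B cell genes Cd79a and Pax5 were at or under 0.346 CPM in all 6 libraries, Pax5 at 0 in each. Epithelial markers were lower in 13 of 14 tested and 0 passed in edgeR's test, where 0.661% of all genes tested did. The summed level of the epithelial markers was 417, 213 and 187 CPM in deficient libraries, against 819, 275 and 211 CPM in wild-type libraries, highest in the libraries numbered 0. Tff1, a mucosal trefoil peptide gene, fell, with 3.52, 10.1 and 12.0 CPM in deficient libraries, against 26.7, 52.6 and 33.3 CPM in wild-type libraries (-2.24 ± 0.31, adjusted p = 0.0211). Its level was lowest in the libraries numbered 0, where the epithelial sum was highest, and the part of epithelial RNA in the Tff1 difference was not tested. Without the block Tff1 had an adjusted p of 0.978.

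Genes of tissue homing and residence followed. Itga1, a collagen-binding integrin chain of resident T cells, had 181, 127 and 157 CPM in deficient libraries, against 43.6, 49.8 and 57.8 CPM in wild-type libraries (1.61 ± 0.19, adjusted p = 0.0116, and 0.0163 without the block). Gpr15, a receptor that guides T cells to the large intestine, had 99.2, 36.9 and 39.4 CPM in deficient libraries, against 48.2, 13.2 and 12.0 CPM in wild-type libraries (1.41 ± 0.20, adjusted p = 0.0232). The Gpr15 groups overlapped because both libraries numbered 0 were high, and each deficient library was above the wild-type library of its number. Without the block Gpr15 did not pass (adjusted p = 1). Of 20 tested homing and residency genes 2 rose (10.0%) and 0 fell, against 0.274% and 0.387% of all genes tested. Tox2, of the Tfh list, was nearly level across the deficient libraries at 32.1, 30.7 and 31.0 CPM, against 80.5, 92.5 and 122 CPM in wild-type libraries (-1.63 ± 0.20, adjusted p = 0.0123).

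Other large rises were in genes of varied function. Ifitm1, an interferon-inducible membrane protein gene, had 143, 140 and 141 CPM in deficient libraries, against 32.8, 24.9 and 19.6 CPM in wild-type libraries (2.48 ± 0.20, adjusted p = 0.00275, and 0.338 without the block), and its neighbour Ifitm2 rose too (adjusted p = 0.0242). The 28 tested interferon-stimulated genes had 0 calls, where 0.661% of all genes tested passed, and a median of 0.31. Nav1, a cytoskeletal guidance gene, had 23.9, 13.01 and 13.9 CPM in deficient libraries, against 1.41, 1.69 and 0.692 CPM in wild-type libraries (3.71 ± 0.35, adjusted p = 0.0058). The predicted gene Gm4793, which overlaps Nav1 on the opposite strand, had 3.47, 1.56 and 3.08 CPM in deficient libraries and was at 0 in the wild-type libraries (adjusted p = 0.0515). Stc2 (stanniocalcin, a secreted glycoprotein), Mfsd13a (a putative membrane transporter), Prag1 (a pseudokinase), Sulf2 (a heparan sulfatase), Fam19a3 (a small secreted protein), Dapk2 (a death-associated kinase) and Prnp (the prion protein) rose with log2 fold changes between 1.68 for Prnp and 2.18 for Stc2. Highly expressed genes that rose included Fgl2, which encodes a secreted immunoregulatory protein, at 453, 381 and 438 CPM in deficient libraries, against 153, 163 and 176 CPM in wild-type libraries (adjusted p = 0.0318). H2-Q7, a nonclassical class I gene, had 884, 668 and 705 CPM in deficient libraries, against 344, 245 and 209 CPM in wild-type libraries (adjusted p = 0.0246). Its near copy H2-Q6 had 741, 717 and 777 CPM against 329, 293 and 219 CPM in wild type (adjusted p = 0.0689), and the split of reads between them is uncertain. Fgl2, Ifitm2, Gm4793, Il10ra, Il4, Maf, Batf, Cd79a, Cd8b1, Klrb1c and Tcrg-C1 were picked with their values in view, outside the naming rule.

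Among the 94, leaving out predicted genes and pseudogenes, the largest fall was that of Ctse, the gene of the endosomal protease cathepsin E, with 21.8, 32.4 and 32.9 CPM in deficient libraries, against 295, 348 and 391 CPM in wild-type libraries (-3.58 ± 0.18, adjusted p = 0.000289, and 0.0141 without the block). Every wild-type library was far above every deficient one. Atrnl1, an attractin-like gene, had 7.17, 6.59 and 5.75 CPM in deficient libraries, against 54.8, 45.4 and 40.2 CPM in wild-type libraries (adjusted p = 0.00263). Pde5a, whose enzyme degrades cyclic GMP, had 19.8, 49.5 and 37.9 CPM in deficient libraries, against 86.2, 198 and 154 CPM in wild-type libraries, with the same order of the numbers in both genotypes (-2.05 ± 0.18, adjusted p = 0.00389). Plcb4, a phospholipase C gene, had 40.9, 38.2 and 36.8 CPM in deficient libraries, against 141, 150 and 201 CPM in wild-type libraries (adjusted p = 0.0101). Abi3bp (an extracellular matrix protein), Ablim3 (an actin-binding protein), Srgap3 (a GTPase activator) and B3galt2 (a galactosyltransferase) fell with log2 fold changes between -2.46 for Abi3bp and -2.18 for B3galt2. Asns, the asparagine synthetase gene, was the 1 of 18 amino acid stress genes that passed (5.56%, against 0.661% of all genes tested). It had 6.53, 10.6 and 9.93 CPM in deficient libraries, against 21.0, 25.5 and 24.1 CPM in wild-type libraries (adjusted p = 0.0202).

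Glycolysis, sterol synthesis, cell cycle, T cell receptor signalling, immediate-early, survival, TGF-beta and naive cell lists had 0 calls in edgeR's test, with medians between -0.16 (cell cycle) and 0.13 (survival and death). Over all genes tested 0.661% passed, so 0 calls in lists this short does not set them apart from other genes. The cell cycle gene Mki67 had 522, 776 and 545 CPM in deficient libraries, against 561, 784 and 1263 CPM in wild-type libraries, with the high value in wild-type library 2 (adjusted p = 0.879). Of 14 tested mitochondrially encoded genes 12 had a negative log2 fold change, 0 passed in edgeR's test, and their summed level was highest in wild-type library 2.

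**Figure D4:**
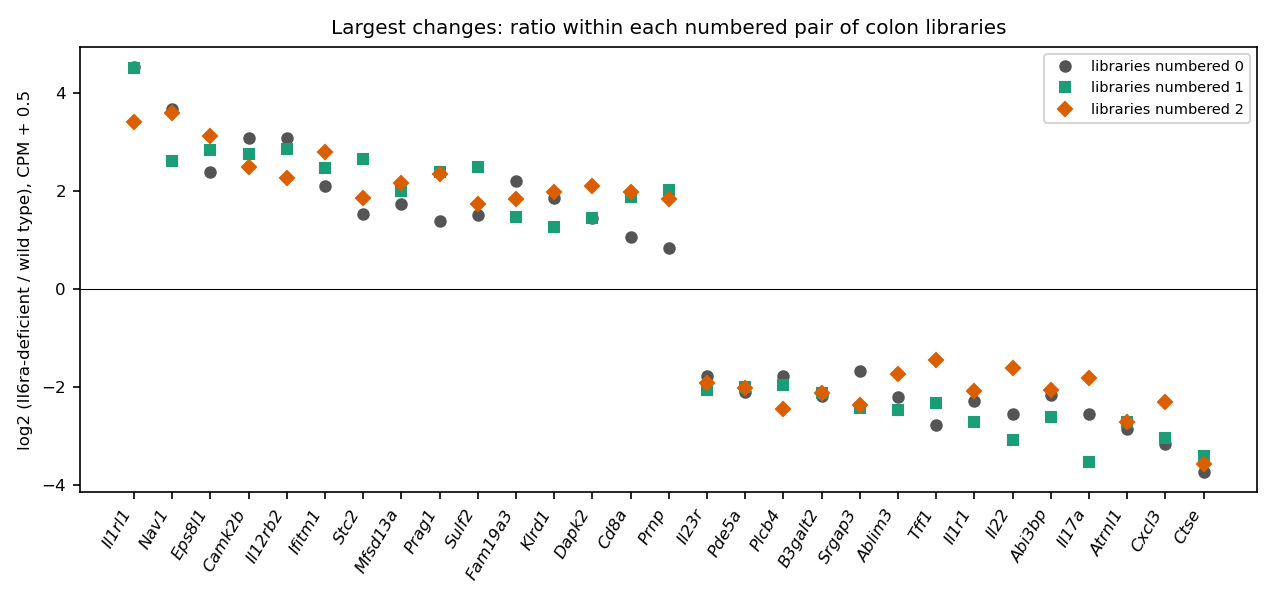
Log2 ratio of Il6ra-deficient over wild type (CPM with 0.5 added, y axis) within each numbered pair of colon libraries, for genes with the largest rises and falls. All 3 pairs lie on the same side of 0 for each gene, as they must, because only genes with non-overlapping groups were chosen. Il1rl1 lies above 3 in every pair.

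Several genes that passed lay next to each other on the chromosome. Taking genes less than 100 kb apart, 18 of the 94 fell into 8 clusters, and 7 of the clusters moved in one direction. The same shares over all tested genes were not computed, so whether the calls differ from other genes in this was not tested. Il17a and Il17f lie together on chromosome 1 (20730905 to 20790617, GRCm38). Il1r2 and Il1r1, also on chromosome 1 (40074079 to 40317257), fell together, while Il1rl1, which starts at 40429570 beyond Il1r1, rose. Between and beyond them Il1rl2 (log2 fold change 0.14), Il18r1 (0.27) and Il18rap (0.71), receptor genes of the same family, did not pass. Il12rb2 rose and its neighbour Il23r fell on chromosome 6 (67291318 to 67491855). Fam19a3, Ppm1j and Rhoc rose, as did Klrd1 with Klrk1 and Ifitm2 with Ifitm1. The clock and hormone receptor genes Nr1d1 and Thra fell by 1.58 and 1.14 on the log2 scale and share 1075 bases on opposite strands, while Fam19a3 and Ppm1j share 785 bases. In all, 18 of the 94 overlap another tested gene, and the share over all tested genes was not computed. The kit keeps strand, and the strand setting of the counting is not stated in the labels, so counts of such genes are uncertain. Genes named for their position (Il1rl2, Il18r1, Il18rap, Nr1d1, Thra, Ppm1j and Rhoc) also lie outside that rule.

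The share of calls was also given around the loci that mark the genotypes. Within 20 Mb of Il6ra on chromosome 3 (89864059 to 89913196), 7 of 352 tested genes passed (1.99%), Fam19a3, Ppm1j, Rhoc and Csf1 among them. Within 20 Mb of Ptprc, the CD45 gene on chromosome 1 (138062861 to 138175708), 5 of 178 passed (2.81%), Ctse, Ptprv, Nav1, B3galt2 and Rgs16. These shares stand beside 0.661% over all genes tested, 1.74% over chromosome 1 and 1.31% over chromosome 3. Whether linked DNA had a part in these differences was not tested. Of the 7, 4 were higher and 3 lower in Il6ra-deficient cells.

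The same genotypes were also compared before transfer, in 4 libraries fitted in the same model, which shares its estimate of each gene's spread between the stages. Before transfer 5 genes passed (0.0351%), 4 of them among the 94 with the same direction. Ctse had 9.40 and 25.2 CPM in deficient cells, against 106 and 228 CPM in wild-type cells before transfer (-3.33 ± 0.22, edgeR adjusted p = 0.00261). Camk2b, a calcium/calmodulin kinase gene, had 9.71 and 20.5 CPM in deficient cells before transfer, against 0.798 and 2.68 CPM in wild-type cells. In the colon it had 83.7, 51.1 and 58.4 CPM in deficient libraries, against 9.35, 7.12 and 9.89 CPM in wild-type libraries (2.85 ± 0.22, adjusted p = 0.0024). It was thus higher in the Il6ra-deficient cells at both stages. Eps8l1, an actin adaptor gene, had 22.8 and 20.1 CPM in deficient cells before transfer, against 1.60 and 3.02 CPM in wild-type cells, and in the colon 25.6, 26.1 and 31.7 CPM against 4.43, 3.20 and 3.18 CPM in wild type (2.95 ± 0.28, adjusted p = 0.0058). Rgs16, a regulator of G protein signalling, had 43.6 and 27.8 CPM in deficient cells before transfer, against 257 and 168 CPM in wild-type cells, and fell by 1.25 (log2) in the colon (adjusted p = 0.02).

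Of the 94, 27 had an unadjusted p under 0.05 before transfer in either direction, against 3.85% of all tested genes. In 23 of these the direction was that of the colon. Both contrasts use the same estimate of each gene's spread, and a small spread also helped the 94 to pass. The larger share among the 94 is therefore not independent support. In all, 55 of the 94 had the same direction at both stages, against 47.0% of all genes. Il17f had 247 and 70.7 CPM in deficient cells before transfer, against 890 and 213 CPM in wild-type cells (-1.72, adjusted p = 0.0751), and Atrnl1 26.7 and 19.0 CPM against 151.1 and 55.3 CPM in wild type (-2.02, adjusted p = 0.0831). Il1r1 had 146 and 78.3 CPM in deficient cells before transfer, against 163 and 46.0 CPM in wild-type cells, and overlapped (log2 fold change 0.30, adjusted p = 0.794). Il1rl1 had at most 0.155 CPM in any library before transfer, and Il12rb2 had 16.2 and 55.2 CPM in deficient cells, against 43.4 and 29.7 CPM in wild-type cells.

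The difference between the stages was tested as an interaction, in which 1 gene passed (0.00703%). Ifitm1 had 23.0 and 101 CPM in deficient cells before transfer, against 37.4 and 236 CPM in wild-type cells, lower in the deficient library of each pair, and was higher in the deficient cells of the colon. The difference between the stages was 3.45 ± 0.31 (log2, edgeR adjusted p = 0.0381). The difference before transfer did not pass by itself (log2 fold change -0.97, adjusted p = 0.792). Of the 94, 74 had an unadjusted interaction p under 0.05, as did 4.84% of all tested genes, but the 94 were chosen on the colon difference that enters this term, and 93 did not pass after adjustment. Interaction values of Il12rb2 (3.02, adjusted p = 0.405) and Il1rl1 (4.52, adjusted p = 0.759) did not pass.

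**Figure D5:**
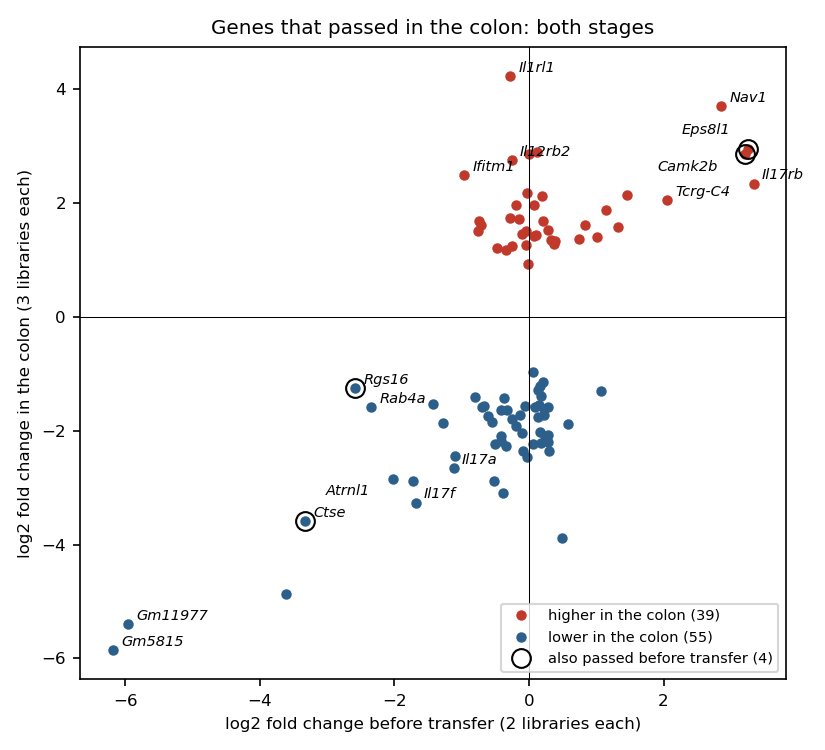
Log2 fold change of Il6ra-deficient over wild type before transfer (x axis, 2 libraries per genotype) against that in the colon (y axis, 3 per genotype) for the 94 genes that passed in the colon. Circles mark the 4 that also passed before transfer, Ctse and Rgs16 lower and Eps8l1 and Camk2b higher in Il6ra-deficient cells at both stages, while Il1rl1 and Il12rb2 lie near 0 on the x axis.

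In the culture experiment, naive CD4 T cells of the same Il6ra genotypes were measured and fitted apart. Per the labels these cells were stimulated with PMA and ionomycin for 4 h before the sort, a step not given for the transferred cells. There 1 of 14926 genes passed (0.0067%), and it was not among the 94. Of the 89 of the 94 tested there, 0 passed in edgeR's test and 9 had an unadjusted p under 0.05, where 11.0% of genes did. Camk2b had 30.6 and 29.9 CPM in deficient naive cells, against 2.30 and 3.52 CPM in wild-type naive cells, higher in both deficient libraries (log2 fold change 3.37, unadjusted p = 0.000563). Ctse had 31.9 and 41.4 CPM in deficient naive cells, against 24.6 and 43.0 CPM in wild-type naive cells, and Eps8l1 51.1 and 36.4 CPM against 35.2 and 35.4 CPM in wild type. Ctse overlapped between naive genotypes, and Eps8l1 groups nearly met.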

How the data were processed

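Count tables of all 20 libraries were used, 6 of them for the colon comparison. The authors deposited whole-number read counts per gene, 39179 gene IDs and 5 summary lines per library. HTSeq 0.7.2, STAR 2.5.3 and build GRCm38 (mm10) are listed in the submitters' processing notes, beside R 3.4.3, DESeq2 1.18.1 and SAMtools 0.1.18. A stranded mRNA kit was used, per the labels' protocols. The annotation release was not stated in the labels. Summary lines were left out. Reads in no gene made up 27.8% to 30.8% in the colon libraries. GENCODE M21 gave symbols and positions for 37693 IDs.

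The 10 transfer libraries were fitted together with edgeR 4.0.16 (R 4.3.3), by the quasi-likelihood F test with TMM scaling, filterByExpr by group, the library number within stage as a block, and Benjamini-Hochberg adjustment over all 14225 genes. The threshold was 0.05. The common biological coefficient of variation was 0.223 with the block (3 residual degrees of freedom) and 0.309 without. The block was used because both genotypes shared hosts. Deviations of same-numbered colon libraries correlated at 0.58, 0.237 and 0.183, and at 0.43 before transfer. Deficient library 2 correlated more with wild-type library 1 (0.279), so pairing within the second experiment follows the titles only. Naive libraries were fitted with the other culture libraries, group as the only factor. No 2 colon libraries of a genotype agreed within sampling noise, with a mean chi-square per gene of 6.88 or more.

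On simulated counts for the colon comparison (14225 genes), 34% of 2-fold and 87% of 4-fold changes were recovered, with 11 unchanged genes called. Named genes were the 15 largest rises and 15 largest falls that passed, had non-overlapping groups and a mean log2 CPM of 2 or more (predicted, RIKEN, unnamed and receptor segment genes left out), a set of Th17-related genes, and up to 4 members of each of 28 lists and 36 families. The text says where a gene lies outside this rule. Some genes that the rule names are not reported here. Members and lists were chosen with earlier results of these data known. Alternatives were no block, colon libraries only, an experiment term, RLE size factors, other filters, DESeq2 1.42.0, and leaving out pairs or libraries.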

Additional observations from a re-analysis of the deposited data

Results flagged for a closer look

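The genotype difference of Ifitm1 had opposite signs at the 2 stages, but the one before transfer did not pass (log2 fold change -0.97 ± 0.24, edgeR adjusted p = 0.792). In the colon it had 143, 140 and 141 CPM in Il6ra-deficient libraries, against 32.8, 24.9 and 19.6 CPM in wild-type libraries. Before transfer it had 23.0 and 101 CPM in Il6ra-deficient libraries, against 37.4 and 236 CPM in wild-type libraries. The colon difference minus the difference before transfer was 3.45 on the log2 scale (edgeR adjusted p = 0.0381). Without the block 0 genes passed for this term. It was singled out because the difference between the stages was itself tested and passed, with every colon pair higher and both earlier pairs lower in deficient cells. No cause was tested.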

How the results depend on the processing

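The colon comparison had 94 calls. Each kept its direction in every setting, of 18, that gave it a value (17 for Npm3-ps1). The settings reuse the same libraries, so this is not separate support. The number that passed varied. It was 22 with no replicate block, 247 with the replicate block and the colon libraries only, 142 with an experiment term, 324 with no filter on low counts and 269 with DESeq2 and the block. Leaving out a numbered pair gave 2 to 23 calls and leaving out 1 library with no block 0 to 8, the 0 without wild-type library 1 or 2 (533 and 555 genes with an unadjusted p under 0.05). RLE size factors, the stricter filter, the colon libraries only without the block, and DESeq2 without the block gave 83 to 133. The colon libraries only without the block gave 108 calls, 54 of them among the 94. DESeq2 without the block gave 133, 71 of them among the 94. Before transfer, where 5 passed, the counts were 1 with no replicate block, 9 with the experiment term, 54 with no filter, 3 with the stricter filter, 29 and 26 with DESeq2 with and without the block, and 0 to 4 with a pair or library left out. For the difference between stages, where 1 passed, they were 0 with no replicate block, 4 with the experiment term, 64 with no filter, 0 with the stricter filter, 59 and 13 with DESeq2 with and without the block, and 0 to 0 with a pair or library left out. In naive cells, where 1 passed, they were 0 with the replicate block, 439 with no filter, 95 with DESeq2, and 0 to 902 with 1 library left out, the highest without wild-type library 2. The causes were not tested. Leaving out pairs or libraries leaves fewer samples. On simulated counts at this depth and with 3 pairs, 34% of 2-fold changes were recovered.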

Other observations

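Predicted genes and pseudogenes that the naming rule leaves out were among the calls and were named after their values were seen. Gm11977 had 0.058, 0 and 0.274 CPM in Il6ra-deficient colon libraries, against 3.16, 3.87 and 7.27 CPM in wild-type colon libraries. Before transfer Gm11977 had 0.078 and 0 CPM in Il6ra-deficient cells, against 4.23 and 1.29 CPM in wild-type cells. It lies on chromosome 11 (6781678 to 6783138), in the same part as Camk2b (5969644 to 6066362). Whether linked DNA had a part in either difference was not tested. Gm5815 had 0.289, 0 and 0 CPM in Il6ra-deficient colon libraries, against 4.08, 4.32 and 13.8 CPM in wild-type colon libraries. Npm3-ps1 had 0.058, 0.082 and 0 CPM in Il6ra-deficient colon libraries, against 1.27, 1.25 and 2.21 CPM in wild-type colon libraries. The deficient cells were near 0 for each of these, and no fold is given.

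Gm15987 also fell in the colon, with 0.52, 1.32 and 0.821 CPM in Il6ra-deficient libraries, against 9.70, 12.5 and 16.1 CPM in wild-type libraries (edgeR adjusted p = 0.0058). Before transfer Gm15987 had 8.47 and 23.3 CPM in Il6ra-deficient cells, against 9.20 and 11.0 CPM in wild-type cells. It overlaps Clec2g on the opposite strand.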
